A study of Mus musculus with 2 samples.

Results

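The genes described here are 10 smooth muscle and myofibroblast contractile genes, Acta2, Tagln, Tagln2, Cnn1, Cnn2, Cnn3, Mylk, Myl9, Cald1 and Smtn. They were chosen by gene symbol, with earlier results of these data known. Each matched 1 of the 21829 genes listed for mouse C2C12 cells. C2C12 is an immortalised mouse skeletal myoblast line. The data are 2 libraries of polyadenylated RNA from cultures in serum-containing growth medium, 1 from unedited cells with the genotype WT and 1 from cells with the genotype GNE KO. The KO cells came from the same line by CRISPR–Cas9 editing, with an indel and a premature stop in exon 2 of Gne, which encodes the enzyme that starts sialic acid synthesis, and were expanded from a single cell, so that the KO library stands for 1 clone. With 1 library a group, no difference given here has a replicate check, and differences between the lines that do not come from Gne cannot be told apart from those that do. The labels and the study's methods describe different library kits and read lengths for these cells.

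Contractile cells pull on their surroundings through actin filaments and myosin motors. In smooth muscle, calcium-bound calmodulin activates myosin light chain kinase, which phosphorylates the regulatory light chain and lets myosin work on actin, while calponins, caldesmon and transgelins bind the actin filament. Many of these genes are switched on by serum response factor, SRF, and its actin-sensing partners, the myocardin-related factors, at a DNA sequence named the CArG box. Fibroblasts that become myofibroblasts take up part of the same programme, for which smooth muscle actin, the product of Acta2, is the usual marker. Cultured myoblasts express several of these genes before they fuse.

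Levels were taken to be FPKM, which are fragment numbers divided by transcript length and sequencing depth, so that genes can be compared per length. They summed to 568543 in WT cells and 574253 in the KO library over all rows. The number of reads is not given, and no counting interval can be set. Gne itself was at 6.67 FPKM in WT cells and 7.34 FPKM in KO cells, and its RNA level therefore does not check the genotype labels. A log2 fold change is log2((KO + 1)/(WT + 1)) and makes the change of low genes look smaller than it was. A gene was counted as more than 2-fold higher or lower when this value was beyond 1. The comparison took in the 10542 genes whose mean over both libraries was 1 FPKM or more.

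All 10 genes had a higher value in the KO library, by very different amounts, but no direction is drawn for Cnn1. Acta2, Tagln, Cnn2, Myl9 and Mylk were more than 2-fold higher, Tagln2, Cnn3, Cald1 and Smtn were higher by a log2 fold change of 0.13 to 0.17, and Cnn1 was near 0 in both libraries. Among the 9 members that passed the filter, 5 exceeded 2-fold upwards and 0 downwards, where 2.84% of all genes compared exceeded it upwards and 3.43% downwards. All 9 were higher by any amount, against 50.7% of all genes. Mylk passed the filter only through its value in the KO library, and of the 8 genes at or above 1 FPKM in the WT library 4 were more than 2-fold higher. The median log2 fold change of the 9 genes was 1.01, that of all genes compared was 0.0061, and the middle 50% of all genes ran from -0.21 to 0.23. The median of 1.01 is the value of a single gene, Cnn2, between a group of 4 genes above it and a group of 4 genes near 0.15. Those near 0.15 lie within the middle 50% of all genes. These counts and medians describe 2 libraries and carry no test. Because the list was made with earlier results of these data known, its counts beside the shares of all genes are description only.

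**Figure D1:**
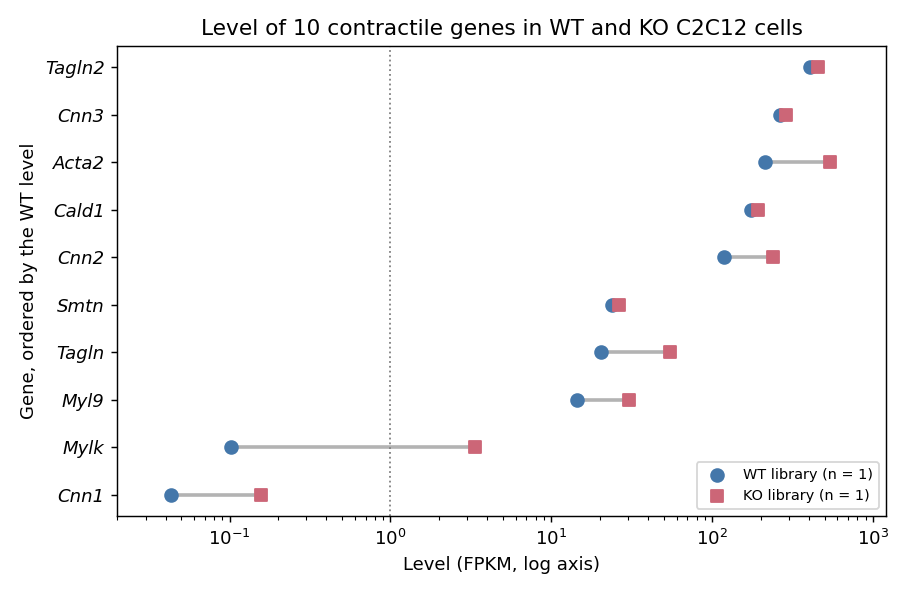
Level of each of the 10 genes in FPKM on a log axis, ordered by the WT level, with 1 point for the WT library and 1 for the KO library; the dotted line marks 1 FPKM. Acta2 moved from 213 to 544 FPKM and Mylk from 0.102 to 3.34 FPKM, while the points of Tagln2, Cnn3, Cald1 and Smtn nearly coincide.

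Acta2, the actin isoform of vascular smooth muscle and of myofibroblasts, is encoded on the minus strand at chr19:34217737-34232990 (GRCm39). It was at 213 FPKM in WT cells and 544 FPKM in KO cells, 2.56 times the WT level and a log2 fold change of 1.35. The gain of 331 FPKM was the largest among the 10 genes in FPKM. Acta2 was the third of the 10 genes by level in the WT library, behind Tagln2 and Cnn3, and the first in the KO library. Its rank among all 21829 genes went from 388 to 154. Only 1 of its 38 neighbours compared, the genes that start within 5 Mb of it, had a higher log2 fold change, and their median was -0.032.

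Tagln encodes transgelin, or SM22-alpha, an actin-binding protein of smooth muscle. It was at 20.3 FPKM in WT cells and 54.5 FPKM in KO cells, 2.68 times the WT level and a log2 fold change of 1.38. The 58 genes around it on chromosome 9 had a median of 0.34, and the difference of Tagln from this median was 1.04. Tagln2, a broadly expressed relative, was by far the more abundant of the pair, at 406 FPKM in WT cells and 457 FPKM in KO cells. Its log2 fold change of 0.17 was close to 0.21, the median of 46 nearby genes. The RNA of Tagln thus made up 4.77% of the summed transgelin level in WT cells and 10.6% in the KO library, and Tagln3, the neuronal member, was at most at 0.064 FPKM.

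The calponins bind actin filaments and restrain myosin. Cnn1, the form of differentiated smooth muscle, was at 0.043 FPKM in WT cells and 0.157 FPKM in KO cells. Among genes with 1 annotated transcript, the lowest values multiplied by transcript length in kilobases were most frequent near 0.038 in WT cells and 0.042 in the KO library, and a product of this size may stand for 1 fragment. For the annotated coding transcripts of Cnn1 the WT value came to between 0.42 and 2.76 of these steps and the KO value to between 1.38 and 9.11. Cnn1 RNA was therefore barely detectable in either library, and no fold is drawn from it. Cnn2, a calponin of many non-muscle cells, was at 118 FPKM in WT cells and 239 FPKM in KO cells. Its ratio was 2.02 and its log2 fold change 1.01, just past 2-fold. Cnn3, another widely expressed calponin, was at 263 and 288 FPKM, a log2 fold change of 0.13. Cnn2 made up 31.0% of the summed calponin level in WT cells and 45.4% in the KO library, and Cnn3 69.0% and 54.6%.

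Cnn2 is encoded at chr10:79824410-79831896 (GRCm39, plus strand) among genes that were themselves higher in the KO library. Its 144 neighbours had a median log2 fold change of 0.39, and 2 of them had a value above that of Cnn2. After subtraction of this median Cnn2 was at 0.62, below 2-fold. The call of Cnn2 therefore rests on whether its neighbours are considered. The share of neighbours in its change was not tested.

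Myosin was represented by its regulatory light chain and the kinase that acts on it. Myl9, the regulatory light chain of smooth muscle, was at 14.4 FPKM in WT cells and 30.4 FPKM in KO cells. Its ratio was 2.11 and its log2 fold change 1.03. The 84 neighbours on chromosome 2 had a median of -0.081, and the difference of Myl9 from them was 1.11. The broadly expressed light chains Myl12a and Myl12b had higher levels, 260 and 261 FPKM in WT cells and 247 and 265 FPKM in KO cells. Myl9 accounted for 2.70% of the 3 light chains in WT cells and 5.61% in the KO library.

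Mylk encodes myosin light chain kinase, and through a start inside the gene also telokin, which is a short protein without kinase activity. It was at 0.102 FPKM in WT cells and 3.34 FPKM in KO cells. Its log2 fold change of 1.98 was the largest of the 10 genes and ranked 76 of the 10542 genes compared, although its level stayed below those of the other 8 genes past the filter. The WT value came to between 7.19 and 21.0 of the steps defined above, depending on the transcript, and the KO value to between 213 and 622. The ratio of the plain values was 32.7, but it has a near-zero value below the line and no known error. None of the 60 neighbours on chromosome 16 had a log2 fold change above that of Mylk, and their median was 0.14. Gene-level values do not tell which of the transcripts of Mylk was measured.

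Caldesmon and smoothelin were among the genes with nearly equal values. Cald1 encodes caldesmon, of which long forms belong to smooth muscle and short forms to other cells, a distinction that gene-level values do not carry. It was at 174 FPKM in WT cells and 193 FPKM in KO cells, a log2 fold change of 0.15. Smtn encodes smoothelin, a protein of contractile smooth muscle with another form in striated muscle. It was at 23.7 FPKM in WT cells and 26.5 FPKM in KO cells, a log2 fold change of 0.16. Smtn was above Tagln in WT cells and below it in the KO library. Whether neighbours in this order differ cannot be said without replicates.

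**Figure D2:**
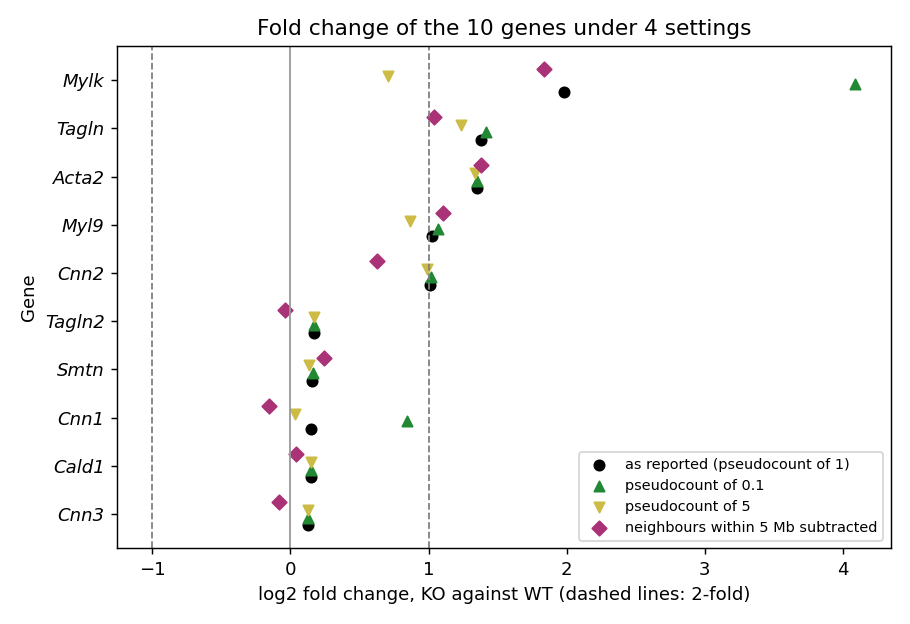
log2 fold change of each gene, KO against WT, as reported and under 3 other settings; dashed lines mark 2-fold. Acta2 and Tagln stayed above 1 in all 4, Cnn2 was at 0.62 after subtraction of its neighbours, and Mylk ranged from 0.71 to 4.09 with the pseudocount.

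**Figure D3:**
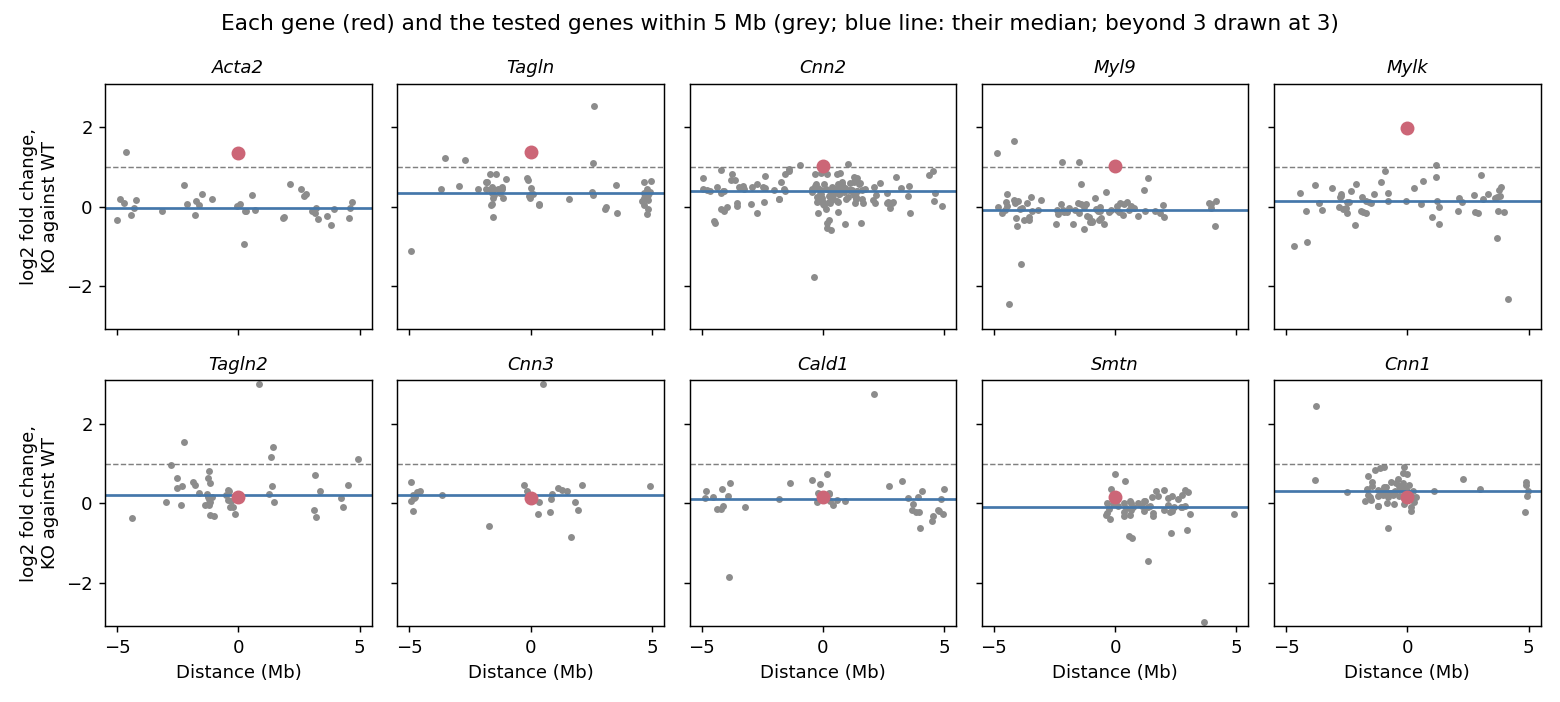
log2 fold change of each of the 10 genes at distance 0 and of the genes compared within 5 Mb on either side, against distance in Mb; the line is the median of the neighbours, the dashed line marks 2-fold, and 3 neighbours beyond 3 in either direction are drawn at 3. Acta2, Myl9 and Mylk stand above surroundings with medians of -0.032, -0.081 and 0.14, and Tagln and Cnn2 lie among genes with medians of 0.34 and 0.39.

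The 250 bases before an annotated start are shown for Acta2, Cnn2 and Myl9, because these were the members with a CArG box or a CArG-like sequence in their RefSeq window on GRCm38.p6. A CArG box is a pair of C, 6 bases of A or T and a pair of G, and CArG-like here means that exactly 1 of these 6 bases is C or G. Capitals mark these stretches, and both strands are covered because the ends mirror each other. The Acta2 stretch is chr19:34255374-34255623 on the minus strand, that of Cnn2 is chr10:79988350-79988599 and that of Myl9 is chr2:156775214-156775463, both on the plus strand.
Acta2: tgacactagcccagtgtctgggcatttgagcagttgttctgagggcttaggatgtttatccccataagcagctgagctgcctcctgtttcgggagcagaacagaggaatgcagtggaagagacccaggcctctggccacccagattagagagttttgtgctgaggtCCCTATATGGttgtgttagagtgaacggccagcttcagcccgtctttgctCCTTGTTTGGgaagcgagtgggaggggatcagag
Cnn2: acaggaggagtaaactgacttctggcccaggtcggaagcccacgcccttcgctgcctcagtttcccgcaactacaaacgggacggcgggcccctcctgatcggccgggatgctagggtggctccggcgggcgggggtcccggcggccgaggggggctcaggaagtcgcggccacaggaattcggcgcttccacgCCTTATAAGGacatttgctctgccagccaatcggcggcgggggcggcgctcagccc
Myl9: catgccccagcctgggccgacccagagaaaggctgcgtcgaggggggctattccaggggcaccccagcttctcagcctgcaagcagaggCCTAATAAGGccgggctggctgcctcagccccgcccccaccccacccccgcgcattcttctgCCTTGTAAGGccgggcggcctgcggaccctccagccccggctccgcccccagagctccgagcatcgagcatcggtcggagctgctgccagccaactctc

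Cnn2 held 1 CArG box, CCTTATAAGG, at -56 to -47 counted from the start. Myl9 held 1 CArG box, CCTAATAAGG, at -161 to -152, and 1 CArG-like stretch, CCTTGTAAGG, at -99 to -90. Acta2 held 2 CArG-like stretches, CCCTATATGG at -84 to -75 and CCTTGTTTGG at -34 to -25. Windows were found for 9 of the 10 genes, Tagln being the exception, and they reached from 250 bases before to 50 bases after a start. A CArG box was present in 1.63% of all 32851 windows, a CArG-like stretch in 8.50% and either of them in 9.98%. All 3 genes with a match were more than 2-fold higher in the KO library, where 2.84% of all genes compared were. The share among all genes with a match was not computed. At a pseudocount of 5 Cnn2 and Myl9 were not more than 2-fold higher, nor was Cnn2 after subtraction of its neighbours. Whether the matches bear on the levels was not tested. Mylk, also more than 2-fold higher, had no match in its window, which lies at 1 of its annotated starts, nor did Tagln2, Cnn1, Cnn3, Cald1 and Smtn. Other starts of these genes, and the introns and distant elements, were not searched. Of 45 genes of the wider contractile network with a window, 13 held a CArG box or a CArG-like stretch and 8 held a CArG box, namely Acta1, Actc1, Actg1, Fhl1, Fhl2, Myl6, Srf and Vcl. None of the 13 was more than 2-fold higher at a pseudocount of 1. This count was fixed, because Actg2, the only network gene past 2-fold, had no window and was not searched. Among the 13, Acta1 was at 2.13 times its WT level on plain FPKM and past 2-fold at a pseudocount of 0.1. Actc1 and Pdlim3 were listed at 0 in both libraries.

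The wider contractile network was described with 55 genes in 5 groups by role. Of the 43 that passed the filter 1 exceeded 2-fold upwards and 0 downwards, a share of 2.33% higher that is near the 2.84% of all genes. Their median log2 fold change was 0.21, with 30 higher and 13 lower. The single gene past 2-fold was Actg2, the actin of gut smooth muscle, at 24.1 FPKM in WT cells and 58.1 FPKM in KO cells, a log2 fold change of 1.24.

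Among the 6 actins, both smooth muscle forms were more than 2-fold higher while the most abundant form was not higher. Actb, one of the cytoplasmic actins, was at 3318 FPKM in WT cells and 2974 FPKM in KO cells, a log2 fold change of -0.16. Actg1, the other, was at 1414 and 1812 FPKM, a log2 fold change of 0.36. Acta2 made up 4.28% of the summed actin level in WT cells and 10.1% in the KO library, and Actg2 0.48% and 1.08%. Acta1, the skeletal muscle actin, was at 1.84 and 3.93 FPKM, a log2 fold change of 0.79, and the cardiac Actc1 was listed at 0 in both. The coding transcripts of Acta2 shared no stretch of 75 bases with any other annotated gene, so that reads of that length carry differences between the actins. Cnn3 was the exception among the 10 genes, with 4.54% of its 75-base stretches also found in the transcripts Gm4815 and Gm17936.

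**Figure D4:**
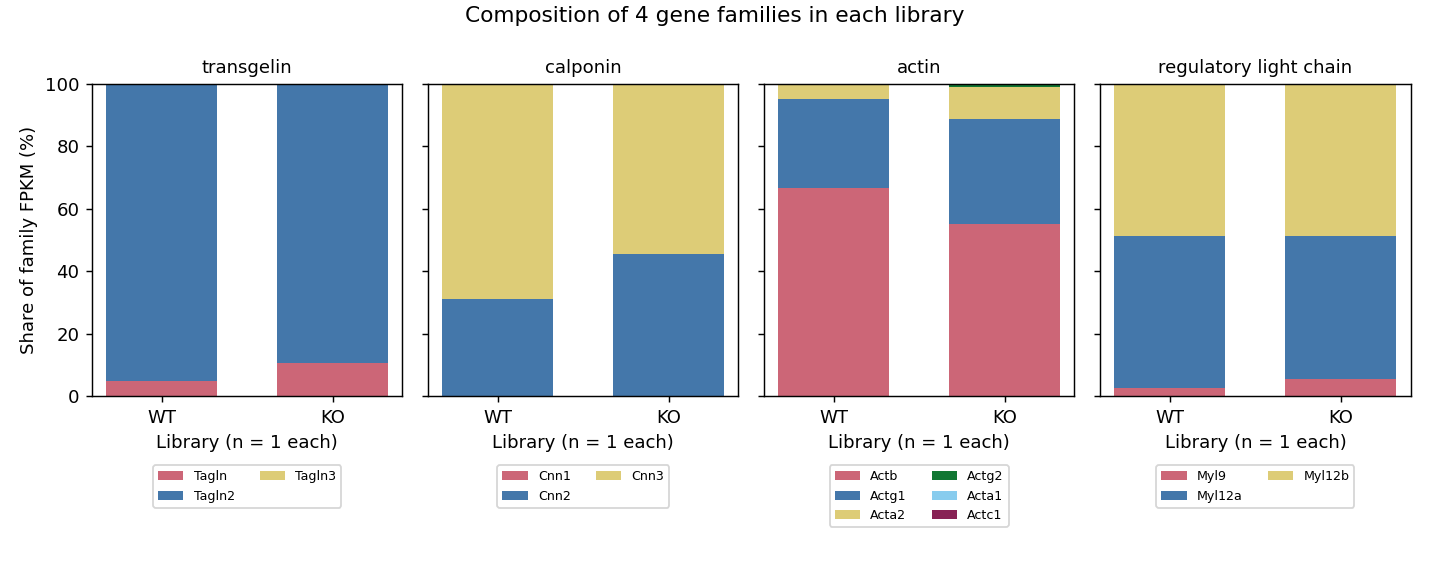
Share of each paralog in the summed FPKM of its family, in percent, for the WT and the KO library. The share of Tagln went from 4.77% to 10.6%, of Cnn2 from 31.0% to 45.4%, of Acta2 from 4.28% to 10.1% and of Myl9 from 2.70% to 5.61%.

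The regulators of the programme, the transcription group, ran from a log2 fold change of -0.56 to 0.81 among genes past the filter. Srf was at 34.5 FPKM in WT cells and 41.9 FPKM in KO cells, a log2 fold change of 0.28. Its coactivator gene Mrtfa was lower, at 33.5 and 22.4 FPKM, a log2 fold change of -0.56, and Mrtfb was at 10.4 and 12.6 FPKM, a log2 fold change of 0.26. Myocd, the coactivator of cardiac and smooth muscle, was listed at 0 in both libraries. Of the 9 genes of the transcription group past the filter 0 were beyond 2-fold in either direction. Of all genes compared 2.84% were beyond it upwards and 3.43% downwards, and with so few genes 0 is near these shares. In this group 7 genes were higher and 2 lower, with a median log2 fold change of 0.34. The highest were the LIM protein genes Csrp1 and Csrp2, both at a log2 fold change of 0.81. Csrp1 was at 116 and 204 FPKM and Csrp2 at 83.6 and 147 FPKM. These genes and those named in the next paragraph were chosen after their values were seen.

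The light chain control group, with 11 genes past the filter, ran from a log2 fold change of -0.48 for Calm2 to 0.56 for Calm3, both encoding calmodulin. Ppp1r12a, the targeting subunit of the light chain phosphatase, was at 0.51. The 6 myosin genes past the filter ran from -0.60 for Myl6b to 0.56 for Myh10, a non-muscle heavy chain. Myh9, the most abundant heavy chain of these, was at 173 and 188 FPKM, a log2 fold change of 0.12. Myh11, the smooth muscle heavy chain, was at 0.009 and 0.020 FPKM, close to the limit of the 3 decimals in which values are given. The 13 actin-linked genes that were compared split into 9 with a higher and 4 with a lower value. Tpm1, a tropomyosin, came closest to 2-fold, at 284 and 546 FPKM with a log2 fold change of 0.94. Tpm2, Tpm3 and Tpm4 were at 0.55, 0.12 and 0.14, and Synpo2 was the lowest at -0.85. Lmod1, an actin nucleator of smooth muscle, was below the filter at 0.086 FPKM in WT cells and 1.49 FPKM in KO cells.

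**Figure D5:**
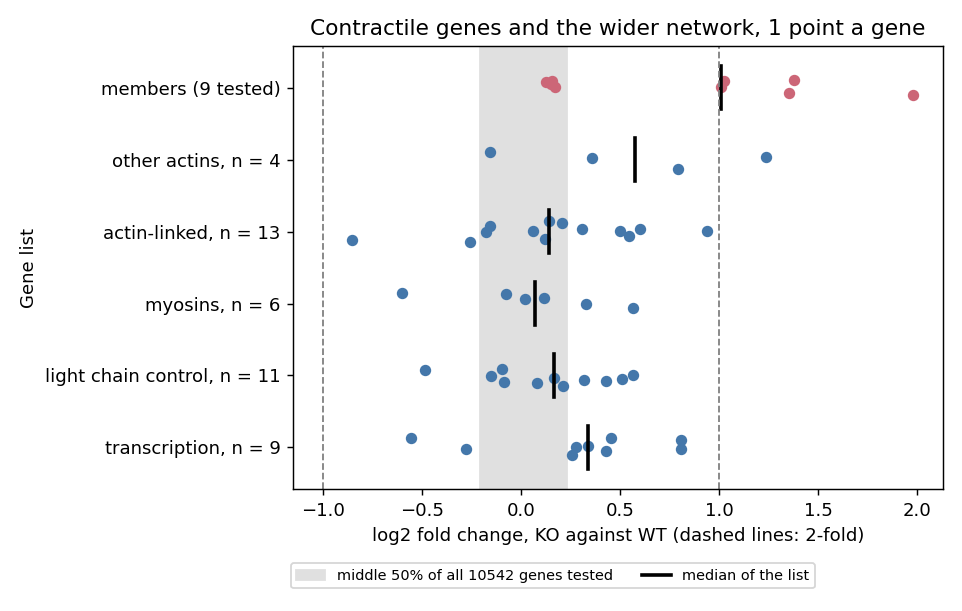
log2 fold change, KO against WT, of the 9 contractile genes past the filter and of 43 further genes in 5 role groups, 1 point a gene; thick bars are list medians, the grey band is the middle 50% of all 10542 genes and dashed lines mark 2-fold. Actg2 at 1.24 is the network gene past 2-fold, and the 9 contractile genes fall into a group of 5 above 1 and a group of 4 between 0.13 and 0.17.

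Markers of cell types were read beside these values. The 7 smooth muscle markers summed to 28.3 FPKM in WT cells and 62.5 FPKM in KO cells, mostly through Actg2, and 2 of them, Actg2 and Synpo2, passed the filter. The other 5 were low in both libraries, but not all alike. Lmod1, as given above, and Kcnmb1, a potassium channel subunit of smooth muscle, had higher values in the KO library, Kcnmb1 at 0.849 FPKM against 0.009 FPKM. Casq2 was at 0.299 and 0.333 FPKM, Myh11 was near 0 and Myocd was listed at 0 in both. The 7 skeletal myoblast markers summed to 199 FPKM in WT cells and 25.8 FPKM in KO cells, and 5 of them passed the filter. Of these 4 were more than 2-fold lower in the KO library, where 3.43% of all genes compared were. Myod1, a myogenic transcription factor, was at 60.0 FPKM in the WT library and listed at 0 in the KO library. Des, which encodes desmin, was at 97.6 and 3.84 FPKM, the cadherin gene Cdh15 at 16.6 and 0.701 FPKM, and the acetylcholine receptor gene Chrna1 at 15.3 and 0.917 FPKM. Myf5, another myogenic factor, was more than 2-fold higher, at 9.14 and 20.3 FPKM. Pax7 was listed at 0 in both libraries and Myog was at 0.068 and 0.027 FPKM. The labelled cell type, a myoblast line, was thus met by 5 of its 7 markers at 1 FPKM or more in the WT library, and by Des and Myf5 in the KO library. Of 8 fibroblast markers 5 passed the filter, Postn only through its value in the KO library. Of these, 3, Col1a1, Col1a2 and Postn, were more than 2-fold higher, where 2.84% of all genes compared were. In the other direction 0 were past 2-fold, but Pdpn was lower, at 149 and 99.3 FPKM. Pdgfra was nearly equal, at 10.8 and 12.3 FPKM. Dcn, below the filter, was at 0.272 FPKM in WT cells and 1.68 FPKM in KO cells. All 8 summed to 407 FPKM in WT cells and 1041 FPKM in KO cells, with Thy1 and Lum listed at 0 in both. Endothelial markers summed to 0.010 and 0.028 FPKM, the leukocyte markers to 2.85 and 1.06 FPKM, all of it Cd68, and pericyte markers to 73.6 and 97.1 FPKM. In RNA from whole cultures, more cells of a type and more RNA per cell cannot be told apart, and the part of the fibroblast and myoblast markers in the higher contractile genes was not tested.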

How the data were processed

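RNA sequencing values of 1 WT and 1 KO C2C12 library were used, with conditions from the genotype labels. The files deposited by the authors hold a single number for each gene symbol, taken to be FPKM that RSEM computed from aligned reads. No unit is named with these numbers and this reading rests on the values, which are not whole and have different totals, but the study's methods name expected counts and TPM, and TPM of only these genes cannot be told apart. The methods name TrimGalore, STAR on GRCm39 and RSEM. The submitters' processing notes list Trim Galore 0.6.6, STAR 2.7.9a, RSEM 1.3.3 and GRCm38 with GRCh38. FPKM depend on the transcript lengths of the annotation, and which one was used is unclear.

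Where a symbol was repeated the copy with the lower mean was dropped, which removed 24 of 21853 rows. Fold changes used a pseudocount of 1 and a mean of at least 1 FPKM, computed over all genes. No p-value was computed, since 1 library a group gives no spread. Gene positions, overlaps and transcripts came from GENCODE vM39 on GRCm39, with a position for 10171 of the 10542 genes, and promoter windows from RefSeq on GRCm38.p6. Neighbours are genes past the filter that start within 5 Mb. Several members overlap genes on the opposite strand, among them Cnn1 with Elof1 and Smtn with Selenom. The libraries are described as stranded, although the setting used to assign reads is not given in the sources used here. Cnn3 also overlaps Gm42929, and Cald1 Gm66862, on the same strand, by their gene spans. The coding transcripts of Cald1 shared no 75-base stretch with another gene, and those of Cnn3 only with Gm4815 and Gm17936. The members and gene lists were chosen with earlier results of these data known. Named genes are all 10 members, Gne, genes of the role lists past 2-fold and markers past 2-fold, and others were chosen after their values were seen. Protein identity within families, part of the design, was not computed and shared 75-base stretches were counted in its place. The calculation was tested on simulated data. For the calls, the planted changes were larger than 2-fold and in well-expressed genes, so this does not cover members near 2-fold or with low levels. Alternatives were pseudocounts of 0.1 and 5, scaling by the median of ratios, no filter, a filter at a mean of 5 FPKM and subtraction of the neighbours' median; windows of 2 and 10 Mb were chosen after seeing the data. The software was Python 3.11.15 with numpy 2.4.6, pandas 2.3.3 and matplotlib 3.10.9.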

Additional observations from a re-analysis of the deposited data

How the results depend on the processing

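No replicate could be left out. No paired analysis was possible because WT and KO share just 1 replicate number, and no test was run. A fold change was taken as changed when it crossed 2-fold or its sign, a median beyond 0.1, a share beyond 1 percentage point and a count beyond 1.5 times. Acta2 and Tagln were more than 2-fold higher under every alternative run, Tagln by as little as 1.00 with neighbours within 2 Mb subtracted.

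With a pseudocount of 5, Cnn2 was at 0.99, Myl9 at 0.87 and Mylk at 0.71, which left 2 members more than 2-fold higher and a member median of 0.71, while 102 of all genes were more than 2-fold higher and 176 lower, against 299 and 362. The filter at a mean of 5 FPKM, which keeps fewer genes, gave 145 and 221 genes and a member median of 0.59, and no filter also gave 0.59, because Mylk leaves or Cnn1 enters. With a pseudocount of 0.1 network genes more than 2-fold higher were 2, Actg2 and Acta1, and 1, Synpo2, was lower. Without a filter 2 were higher, Actg2 and Lmod1.

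After subtraction of the neighbours' median, Cnn2 was at 0.62, 0.62 and 0.63 for windows of 5, 2 and 10 Mb, and so was the member median. Cnn1 was at -0.15, -0.14 and -0.16. Tagln2 was at -0.041 for 5 Mb and -0.010 for 2 Mb, Cnn3 at -0.085 for 5 Mb and -0.038 for 10 Mb, and Cald1 at -0.082 for 2 Mb. For Tagln2, Cnn3 and Cald1 the sign therefore depends on the neighbours. Cnn1 was barely detectable, and no direction is drawn from its values. With windows of 2 and 10 Mb 1 network gene, Synpo2, was more than 2-fold lower. Median-of-ratios scaling, with a factor of 1.00, changed no call of a member or network gene, although Cnn2 was then at 1.004, and gave 297 and 366 genes in all. Family shares moved by less than 1 point without genes below the filter.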
